A study of Mus musculus with 16 samples.

Results

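The genes described are 47 Wnt ligands, receptors, secreted inhibitors and regulators, taken from the 24091 genes of the count tables by their symbols. They are 19 Wnt ligands, 10 Frizzled receptors (Fzd), the 2 co-receptors Lrp5 and Lrp6, 4 R-spondins (Rspo), their 2 receptors Lgr4 and Lgr5, 4 secreted Frizzled-related proteins (Sfrp), 4 Dickkopf proteins (Dkk), Wif1, and the feedback gene Axin2. RNA with a poly(A) tail was sequenced from 16 mouse samples of a study of Tff2, which encodes trefoil factor 2, a peptide secreted by mucous cells. Embryonic day 16.5 (E16.5) whole pancreata came from 3 Pdx1:Cre;Tff2fl/fl embryos, called KO, and 3 Tff2fl/fl controls. Islets came from male mice aged 60 weeks, 5 of them Pdx1:Cre;Tff2fl/fl (KO) and 5 Tff2fl/fl controls, and were picked by hand after collagenase digestion. Each library has its own animal number. All groups carry the floxed allele, and Cre recombinase is present in the KO animals alone, so that effects of Cre and of the deletion cannot be told apart. The Pdx1 promoter drives Cre in the pancreatic epithelium, whereas whole pancreata also hold mesenchyme, vessels, nerves and blood.

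Wnt proteins are secreted ligands that bind a Frizzled receptor together with Lrp5 or Lrp6, which stabilises beta-catenin and lets it act with TCF/LEF factors on target genes. R-spondins bind Lgr receptors and raise the number of Frizzled receptors on the cell surface, while Sfrp proteins and Wif1 bind Wnt ligands and Dkk1, Dkk2 and Dkk4 act on Lrp5 and Lrp6. In the fetal pancreas ligands and inhibitors come from both mesenchyme and epithelium, and in adult islets Wnt4 is known as a ligand of mature endocrine cells.

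Library totals were 14866194 to 22699934 reads in the E16.5 pancreata and 22595400 to 32385042 reads in the islets. The summed level of 10 endocrine markers was 162000 to 186000 CPM (counts relative to the library size, scaled by the TMM method) in KO islets and 166000 to 199000 CPM in control islets. In E16.5 pancreata 10 acinar markers summed to 50700 to 95300 CPM in KO and 103000 to 122000 CPM in control embryos. Tff2 itself had 2.70, 9.96 and 1.60 CPM in the KO pancreata, against 38.7, 22.7 and 35.1 CPM in the control pancreata (log2 fold change -2.80, edgeR adjusted p 0.0297, or 0.150, 0.108 and 0.0837 on leaving out control 02, 08 or 13). In islets Tff2 averaged 0.277 ± 0.221 CPM in KO and 2.44 ± 1.52 CPM in control animals (SD, n = 5 each), with an adjusted p of 0.0884 and no overlap between groups. By Xist and Ddx3y, embryo KO 18 was male, with 1.38 CPM of Xist and 119 CPM of Ddx3y, and the other 5 embryos were female, with 973 to 1590 CPM of Xist.

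The sequences that introduce the levels are the 250 bases before the start sites of Wnt4, Sfrp5 and Rspo4, the 3 members with the largest excess of islets over E16.5 pancreata, and of Sfrp2, the inhibitor that changed most clearly between genotypes at E16.5 and was nearly absent from islets. They were taken from RefSeq (GRCm38.p6), from which windows of 30 of the 47 members were used. They are written 5′ to 3′ on the gene's strand, with every CG dinucleotide in capitals. The windows are chr4:137277385-137277634 (plus strand) for Wnt4, chr19:42202253-42202502 (minus strand) for Sfrp5, chr2:151842677-151842926 (plus strand) for Rspo4 and chr3:83766071-83766320 (plus strand) for Sfrp2.
Wnt4: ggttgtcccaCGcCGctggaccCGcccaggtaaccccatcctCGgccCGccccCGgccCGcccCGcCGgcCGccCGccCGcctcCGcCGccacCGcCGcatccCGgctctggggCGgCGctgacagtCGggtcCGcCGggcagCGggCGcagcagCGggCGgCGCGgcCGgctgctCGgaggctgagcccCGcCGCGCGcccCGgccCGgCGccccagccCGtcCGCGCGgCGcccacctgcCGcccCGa
Sfrp5: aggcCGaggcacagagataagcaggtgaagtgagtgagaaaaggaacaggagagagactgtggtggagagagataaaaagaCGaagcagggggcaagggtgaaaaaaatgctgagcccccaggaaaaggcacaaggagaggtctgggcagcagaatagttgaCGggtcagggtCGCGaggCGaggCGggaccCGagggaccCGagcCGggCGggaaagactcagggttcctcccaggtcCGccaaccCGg
Rspo4: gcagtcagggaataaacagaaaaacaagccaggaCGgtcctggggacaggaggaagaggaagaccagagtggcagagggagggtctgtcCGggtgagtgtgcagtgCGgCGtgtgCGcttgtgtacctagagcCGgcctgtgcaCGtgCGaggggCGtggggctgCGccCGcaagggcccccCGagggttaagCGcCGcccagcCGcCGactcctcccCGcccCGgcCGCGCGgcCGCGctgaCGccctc
Sfrp2: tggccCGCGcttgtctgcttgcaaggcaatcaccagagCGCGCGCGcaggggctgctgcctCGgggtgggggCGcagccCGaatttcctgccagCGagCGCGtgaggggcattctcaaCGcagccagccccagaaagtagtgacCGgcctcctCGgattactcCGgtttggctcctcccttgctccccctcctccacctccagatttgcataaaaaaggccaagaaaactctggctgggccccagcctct

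Wnt4 had 44 CG dinucleotides in its window and a GC content of 85.2%, Rspo4 had 24 and 69.6%, Sfrp2 had 16 and 63.6%, and Sfrp5 had 13 and 59.6%. The median over the 32851 promoters of the same length was 6 CG dinucleotides and a GC content of 52.4%. Of the 30 members with a window, 28 lay above that median count. Fzd8 and Wnt8a, which share a chromosome, were left out of the 30, whereas the 32851 promoters were not restricted in this way. The core letters bound by TCF/LEF factors, CTTTGAT on either strand (ATCAAAG on the other), stood in 1 of the 30 member windows (3.33%) and in 3.21% of all windows. The member was Wnt11, with the match beginning 51 bases before its start. None of the 4 windows printed above holds these letters. By position the ligand genes also form 4 close pairs within 100000 bases, Wnt6 with Wnt10a, Wnt10b with Wnt1, Wnt3a with Wnt9a and Wnt9b with Wnt3. No pair had both genes at 1 RPKM or more in either tissue's controls. In control pancreata Wnt9a reached 2.83 RPKM (scaled reads per kb of gene length and per 1e6 reads), its neighbour Wnt3a 0.00609 RPKM, and Wnt6 had 0.322 RPKM beside 0.0541 RPKM for Wnt10a.

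Levels were compared between genes as RPKM, which divides the scaled count by the deposited gene length. In control islets Wnt4 was the most abundant member at 78.1 ± 6.06 RPKM (SD, n = 5), with 68.5 RPKM in the lowest and 84.5 RPKM in the highest islet library. Sfrp5 followed at 25.1 ± 1.99 RPKM, Rspo4 at 20.2 ± 1.78 RPKM and the co-receptor Lrp6 at 16.8 ± 1.43 RPKM. Wnt4 and Sfrp5 each stood clear of the next gene in every library, whereas the ranges of Rspo4 and Lrp6 overlapped. Below them came Fzd3, a receptor known for planar polarity and axon guidance, at 9.76 ± 0.972 RPKM, Lrp5 at 9.35 ± 0.429 RPKM and Lgr4 at 8.54 ± 1.04 RPKM, and neighbours in this trio overlapped. The other Frizzled receptors with at least 1 RPKM were Fzd6, Fzd4, Fzd7, Fzd8 and Fzd5, between 5.28 and 1.18 RPKM. Islets thus had 16 members at 1 RPKM or more and 22 under 0.1 RPKM, 9 of which had no read in any control library (Dkk1, Dkk4, Fzd10, Wnt1, Wnt16, Wnt2, Wnt3a, Wnt8a and Wnt8b).

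**Figure D1:**
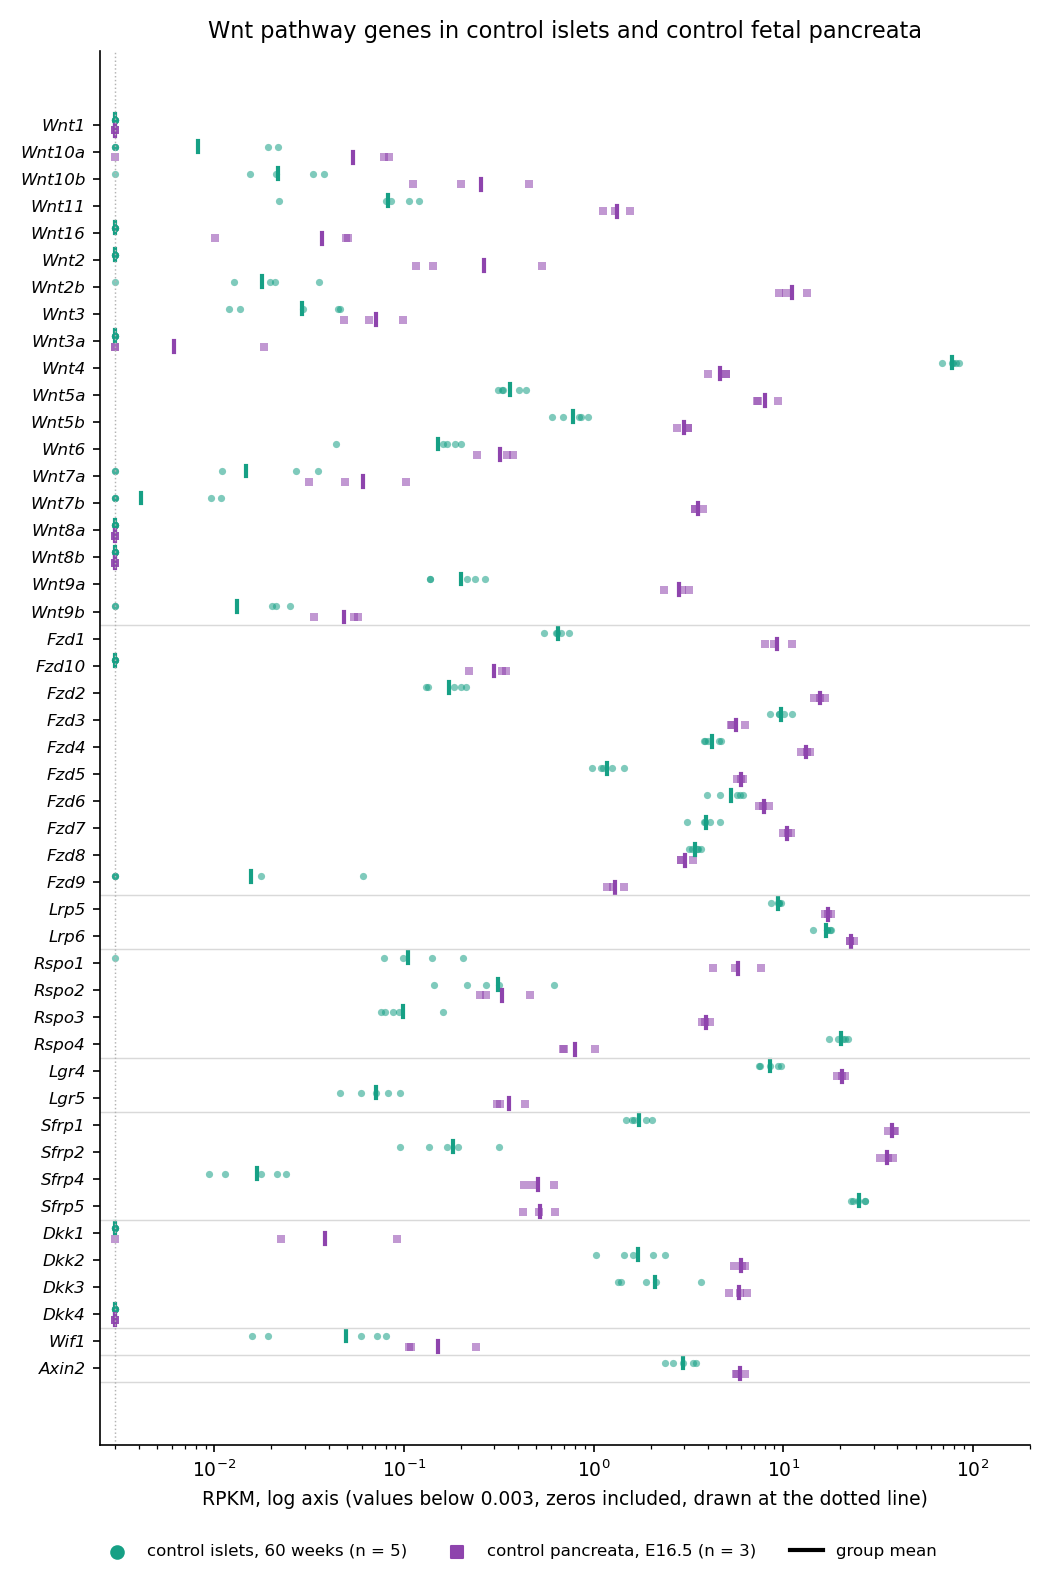
RPKM on a log axis for the 47 genes by role, each point 1 control library (5 of islets, 3 of E16.5 pancreata) and each bar the group mean. Wnt4, Sfrp5 and Rspo4 lie far to the right in islets (means 78.1, 25.1 and 20.2 RPKM) and near 4.65, 0.521 and 0.804 RPKM in E16.5 pancreata, while most other genes run the opposite way.

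Control E16.5 pancreata were led by inhibitors. Sfrp1 had 37.7 ± 1.68 RPKM and Sfrp2 35.3 ± 2.61 RPKM (SD, n = 3), with overlapping ranges. Lrp6 had 22.9 ± 0.626 RPKM, Lgr4 20.4 ± 1.07 RPKM, Lrp5 17.2 ± 0.592 RPKM and Fzd2 15.6 ± 0.978 RPKM, and no pair of neighbours among these overlapped. Fzd4, which also serves as the receptor of Norrin in vessels, had 13.2 ± 0.675 RPKM. The leading ligand was Wnt2b at 11.1 ± 2.04 RPKM, followed by Wnt5a, a ligand best known for signalling without beta-catenin, at 8.00 ± 1.2 RPKM and Wnt4 at 4.65 ± 0.555 RPKM. In all, 26 members had 1 RPKM or more and 11 were under 0.1 RPKM. Wnt1, Wnt8a, Wnt8b and Dkk4 had no read in the 3 control embryos.

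Between the control groups, islets against E16.5 pancreata, 33 members entered the test, and 31 of them (93.9%) passed an edgeR adjusted p of 0.05. As 86.5% of all genes tested passed, this count says little about the members. Their direction was less even. Of the 33 members 27 (81.8%) were lower in islets, against 44.7% of all genes tested that passed in that direction, and the members' median log2 fold change was -1.99, against -0.04 over all genes tested. A gene expressed in pancreata alone could enter this test, and 10 of the 33 were too low in islets to be tested there. These 10 are part of the 81.8% and of the median. Among the other 23, 17 (73.9%) were lower in islets. The matching share over all genes tested in islets was not counted, so the 44.7% is not its counterpart. Tissue, age, sex and preparation all differ between these groups and cannot be told apart, and in bulk samples fewer cells of a type and less RNA per cell cannot be told apart either.

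4 members were higher in islets, a direction in which 41.8% of all genes tested passed. Sfrp5 was higher by 5.54 on the log2 scale (SE 0.126, adjusted p 6.43e-13), Rspo4, known in humans for its role in nail formation, 4.62 (SE 0.133, adjusted p 5.04e-12), Wnt4 4.02 (SE 0.103, adjusted p 1.79e-12) and Fzd3 0.74 (SE 0.088, adjusted p 5.03e-06). Other members of their families ran the opposite way. Sfrp1 and Sfrp2, the leading Sfrp genes at E16.5, had log2 fold changes of -4.49 and -7.61 in islets. Rspo4 likewise stood at 20.2 RPKM in control islets while Rspo1 and Rspo3 had 0.104 and 0.0994 RPKM there, against 5.81 and 3.91 RPKM in control pancreata. Among ligands, Wnt5a had 0.363 RPKM in control islets and 8.00 RPKM in control pancreata. Wnt2b was nearly absent from islets, with 8 reads over 5 control libraries, against 2511 reads over 3 control pancreata, and Wnt7b had 2 reads against 1006.

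Among receptors, Lrp6 differed by -0.49 (SE 0.072) and Lrp5 by -0.93 (SE 0.052) on the log2 scale, Fzd6 by -0.64 and Lgr4 by -1.30. Fzd2 and Fzd1 differed more, with 0.172 and 0.648 RPKM in control islets against 15.6 and 9.34 RPKM in control pancreata. Fzd10 had no islet read and was at least 39.0-fold lower than in pancreata, counted against a floor of 3 reads over the islet control group, and the members' median was the same with Fzd10 at that bound. Axin2, a direct target of beta-catenin signalling in many tissues, had 2.96 ± 0.470 RPKM in control islets (n = 5) and 5.89 ± 0.333 RPKM in control pancreata (n = 3), a difference of -1.04 on the log2 scale (SE 0.115, adjusted p 2.37e-06). Fzd8, at 0.13 with an adjusted p of 0.201, and Rspo2, at -0.11 with an adjusted p of 0.809, did not pass, and Fzd8 was at -0.06 when library totals replaced TMM scaling. That scaling moved the median of all genes to -0.23. Wnt6 (-1.11, adjusted p 0.0135) was the one called member that another setting ended, with an adjusted p of 0.0704 without E16.5 control 02 and 0.0512 with DESeq2.

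The E16.5 comparison asked how loss of Tff2 in the Pdx1 lineage changed the fetal pancreas. Of the 47 genes, 35 passed the filter on low counts, and 2 of them (5.71%) changed past an adjusted p of 0.05, Sfrp2 upward and Wnt7b downward. Over all genes 6.43% passed, 3.75% upward and 2.68% downward, so the members were called no more often than other genes. Their median log2 fold change was 0.15, against -0.00 over all genes tested. Above 0 lay 25 of the 35, against 7427 of all 14914 genes tested. At an unadjusted p under 0.05 there were 14 of the 35 members (10 above 0 and 4 below). Over all genes tested there were 3791 of 14914 (25.4%), 1940 above 0 and 1851 below. The 2 groups of embryos did not overlap for 10 tested members, 6 higher and 4 lower in KO pancreata. Over all genes tested 31.1% did not overlap, 15% higher and 16.1% lower.

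Sfrp2, an inhibitor that binds Wnt ligands and is typical of mesenchyme, lies on chromosome 3 from 83766321 to 83774314 (mm10, plus strand). It had 133, 116 and 133 CPM in KO pancreata, against 79.5, 72.6 and 84.5 CPM in control pancreata. Each KO embryo was above each control. Its log2 fold change was 0.69 (SE 0.080, adjusted p 0.0176). Its adjusted p became 0.122 on leaving out control 02, 0.0853 for control 08 and 0.0665 for control 13, while the log2 fold change stayed between 0.64 and 0.74; without KO 18, the male embryo, it was 0.75 (adjusted p 0.0206). Under these 3 omissions of a control edgeR called 0, 4 and 0 genes in the whole table, with 2606, 2923 and 3420 at an unadjusted p under 0.05.

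Wnt7b, a ligand made by fetal epithelia, lies on chromosome 15 from 85535437 to 85581821 (minus strand). It had 11.7, 12.9 and 13.3 CPM in KO pancreata, against 18.8, 16.8 and 17 CPM in control pancreata, again with no overlap. The log2 fold change was -0.48 (SE 0.098, adjusted p 0.0353). The call was lost without control 02, 08 or 13 (adjusted p 0.167, 0.115 and 0.0847) and without KO 01 or KO 18 (0.0506 and 0.0526). The span of Wnt7b overlaps that of AU022754 on the other strand, a gene with 66 reads over the 6 pancreata. Whether their exons overlap was not examined, and strand use in counting is not given. Whether reads of the pair were mixed is therefore not known.

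Marker lists of other cell types were read beside these values. Of 14 tested pan-epithelial markers 9 fell, and all 15 summed to 2230 to 2320 CPM in KO and 2770 to 3190 CPM in control pancreata. When libraries were scaled to these markers, the median of all genes moved by 0.39 and 65.1% of all genes tested passed. Wnt7b was then at -0.09 (adjusted p 0.520), which is below that shift, and Sfrp2 at 1.08 (adjusted p 0.00151). Of 12 mesenchyme and fibroblast markers 1 rose, with sums of 17500, 24700 and 19400 CPM in KO 01, 18 and 19, against 18500, 17000 and 19900 CPM in controls 02, 08 and 13. Smooth muscle and pericyte markers summed to 543 to 752 CPM in KO and 418 to 505 CPM in control pancreata (5 of 10 rose), and mesothelial markers to 418 to 621 CPM and 333 to 462 CPM (1 of 7 rose). All 7 mesothelial markers lay above 0 on the log2 scale, with a median of 0.60, and 5 had an unadjusted p under 0.05. Among the 3 KO embryos, KO 18 had the highest mesenchymal and smooth muscle sums, and KO 19 the highest mesothelial sum. Sfrp2 was at 133, 116 and 133 CPM in KO 01, 18 and 19. None of the markers in these 4 lists was at 0. In a further list, liver markers summed to 1530, 303 and 389 CPM in KO 01, 18 and 19, against 388, 394 and 515 CPM in controls 02, 08 and 13. Of 10 endothelial markers 2 fell and 0 rose, with sums of 717 to 990 CPM in KO and 930 to 1170 CPM in control pancreata. The part of any of these cell types in the Sfrp2 and Wnt7b values was not tested further.

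**Figure D2:**
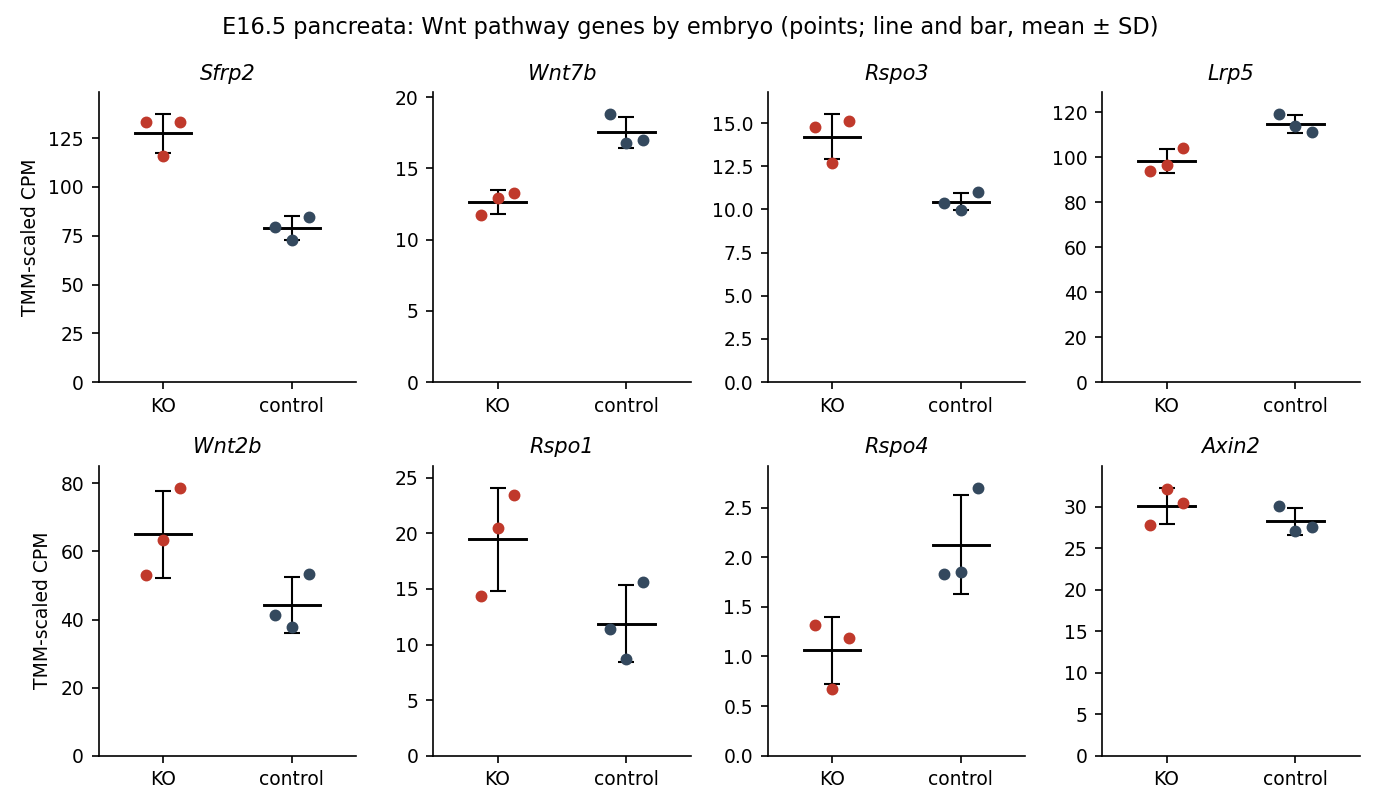
TMM-scaled CPM in each E16.5 pancreas for 8 genes, 3 KO embryos left and 3 controls right, with line and bar the mean ± SD and each axis starting at 0. Sfrp2, Rspo3, Wnt7b, Lrp5 and Rspo4 show no overlap between groups, whereas the Axin2 points of both groups lie between 27.1 and 32.1 CPM.

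The R-spondins, which amplify Wnt signals, did not pass the threshold, and 3 of the 4 had an unadjusted p under 0.05, against 25.4% of all genes tested. Rspo3 had 14.8, 12.7 and 15.1 CPM in KO pancreata, against 10.4, 9.97 and 11 CPM in control pancreata. The groups did not overlap (log2 fold change 0.44, SE 0.109, adjusted p 0.0518). It passed with library totals (0.0412), with DESeq2 (0.0462) and without KO 18 (0.0446). The adjusted p was 0.198, 0.161 and 0.101 without control 02, 08 or 13, and 0.0765 and 0.113 without KO 01 or KO 19. With pan-epithelial scaling Rspo3 was at 0.83 (adjusted p 0.00166), a setting that moves all genes by 0.39 and calls 65.1% of them. Rspo1 had 14.4, 20.5 and 23.5 CPM in KO pancreata, against 11.4, 8.68 and 15.6 CPM in control pancreata, with 1 control above the lowest KO. Its log2 fold change was 0.71 (SE 0.239, adjusted p 0.112), and it passed with DESeq2 (0.0304) and without KO 01 (0.0342). Leaving out any other library gave 0.0912 to 0.308. With pan-epithelial scaling Rspo1 was at 1.09 (adjusted p 0.00779), again where 65.1% of all genes tested passed. Rspo4, the islet R-spondin, had low levels of 1.32, 0.677 and 1.19 CPM in KO pancreata, against 1.83, 1.85 and 2.70 CPM in control pancreata. Every KO value was below every control value (log2 fold change -0.97, SE 0.308, adjusted p 0.0969). With pan-epithelial scaling, which moves all genes by 0.39, Rspo4 was at -0.595 (adjusted p 0.128). Of 10 endocrine markers 7 fell and none rose at E16.5, with a median log2 fold change of -1.04. They summed to 1750, 1490 and 1070 CPM in KO 01, 18 and 19, against 2870, 2620 and 3430 CPM in controls 02, 08 and 13, none of them was at 0, and their part in the Rspo4 value was not tested. Rspo2 was at 0.45 on the same scale (adjusted p 0.443).

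Of the R-spondin receptors, Lgr4 had 111, 99.8 and 124 CPM in KO pancreata and 108, 120 and 116 CPM in control pancreata (log2 fold change -0.04, adjusted p 0.803). Lgr5, a stem cell marker in the intestine, had 3.92, 5.15 and 5.71 CPM in KO pancreata, against 2.97, 4.03 and 2.88 CPM in control pancreata. Its log2 fold change was 0.58 (SE 0.215, adjusted p 0.139), with KO 01 below control 08. The span of Lgr5 overlaps that of A930009A15Rik on the other strand, a gene with 1 read over the 6 pancreata.

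Among the 9 ligands tested besides 10 that were too low, Wnt2b was the most abundant, and it marks mesenchyme and mesothelium in several fetal organs. It had 53.2, 63.3 and 78.7 CPM in KO pancreata, against 41.4, 37.8 and 53.4 CPM in control pancreata. KO 01 and control 13 nearly coincided. The log2 fold change was 0.56 (SE 0.166, adjusted p 0.0831), and DESeq2 gave an adjusted p of 0.0106. Without KO 01 it passed edgeR's threshold (0.0258), and over the other alternatives that dropped a library the adjusted p was between 0.0816 and 0.271. Mesothelial markers summed to 418, 572 and 621 CPM in KO 01, 18 and 19, against 333, 335 and 462 CPM in controls 02, 08 and 13. Their part in the Wnt2b and Rspo1 values was not tested. Wnt6 differed by 0.78 on the log2 scale (adjusted p 0.123, levels of 1.29 ± 0.131 CPM in KO and 0.744 ± 0.162 CPM in control pancreata). Wnt9a was at 0.43 (adjusted p 0.171), Wnt5b at 0.27 (0.221), Wnt5a at 0.24 (0.309), Wnt11 at 0.14 (0.785), Wnt4 at -0.21 (0.284) and Wnt2 at 0.78 with a wide interval from -0.97 to 2.52. The span of Wnt5b overlaps that of Fbxl14 on the other strand, which had 4743 reads over the pancreata. Whether reads of this pair were mixed is not known either.

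No receptor passed the threshold. Lrp6 had 259, 251 and 265 CPM in KO pancreata, against 247, 257 and 245 CPM in control pancreata (log2 fold change 0.05, 95% interval -0.08 to 0.18, adjusted p 0.613). Lrp5 had 94.0, 96.7 and 104 CPM in KO pancreata, against 119, 114 and 111 CPM in control pancreata. These groups did not overlap. The log2 fold change was -0.22 (SE 0.061, adjusted p 0.0658), and with pan-epithelial scaling it was 0.17, below the 0.39 by which that scaling moves all genes. Fzd2, the most abundant Frizzled receptor at this stage, had 59.6, 63.4 and 64.9 CPM in KO pancreata and 67.3, 59.1 and 63.7 CPM in control pancreata. Its log2 fold change of -0.02 (95% interval -0.17 to 0.14, adjusted p 0.896) was 0.06 with library totals, 0.03 without control 02 and 0.02 without KO 01. Among the 10 Frizzled receptors, Fzd3 (0.29), Fzd4 (0.21) and Fzd9 (-0.46) had unadjusted p-values under 0.05.

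Of the other inhibitors, Sfrp1 had 218, 216 and 194 CPM in KO pancreata, against 189, 174 and 189 CPM in control pancreata. KO 19 was 194 CPM and thus just above the 2 highest controls, and the log2 fold change was 0.19 (SE 0.069, adjusted p 0.137). The 4 Sfrp genes summed to 332 to 355 CPM in KO and 250 to 278 CPM in control pancreata, of which Sfrp1 and Sfrp2 made up nearly all. Dkk2, which acts on Lrp5 and Lrp6, had 24.8, 34.5 and 29.1 CPM in KO pancreata, against 25.2, 22.7 and 26.1 CPM in control pancreata, KO 01 lying within the control range (log2 fold change 0.25, SE 0.124, adjusted p 0.244). Dkk3, a divergent member of its family, was at 0.13 (adjusted p 0.693), Sfrp4 at 0.15 (0.846), Sfrp5 at 0.35 (0.568) and Wif1 at 0.86 (0.239).

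Axin2 had 27.8, 32.1 and 30.4 CPM in KO pancreata, against 30.1, 27.1 and 27.5 CPM in control pancreata. The groups overlapped (log2 fold change 0.09, 95% interval -0.10 to 0.28, adjusted p 0.523). Scaling to pan-epithelial markers put it at 0.49 (adjusted p 0.00485), close to the shift of 0.39 that this scaling gives all genes.

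The 12 members too low for the test had between 0 and 36 reads per group. Wnt1 and Dkk4 had none. Dkk1, an inhibitor of Lrp5 and Lrp6, had 36 reads over the KO pancreata and 5 over the control pancreata, with 1.32, 0.610 and 0.119 CPM in KO 01, 18 and 19, against 0, 0.056 and 0.230 CPM in controls 02, 08 and 13. KO 19 was thus below control 13. Wnt3 had 30 and 14 reads over KO and control pancreata with no overlap in CPM, Wnt10b 16 and 36, and Wnt10a, Wnt16, Wnt3a, Wnt7a, Wnt8a, Wnt8b and Wnt9b at most 14 in either group.

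The islet comparison addressed gene expression in aged mice after the same deletion. None of the 23 members tested passed an adjusted p of 0.05 with edgeR, where 0.155% of all genes did, and none passed with DESeq2. At an unadjusted p under 0.05 there were 2 members, Lrp5 and Fzd6, against 7.18% of all genes tested. No tested member separated the groups, which 1.55% of all genes tested did. Their median log2 fold change was -0.04, with 7 members above 0 and 16 below. The other 24 members were too low to be tested. Of the 14 pan-epithelial, 11 mesenchymal, 10 endothelial and 10 acinar markers tested in islets, none passed the threshold, and 0, 0, 1 and 0 had an unadjusted p under 0.05.

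**Figure D3:**
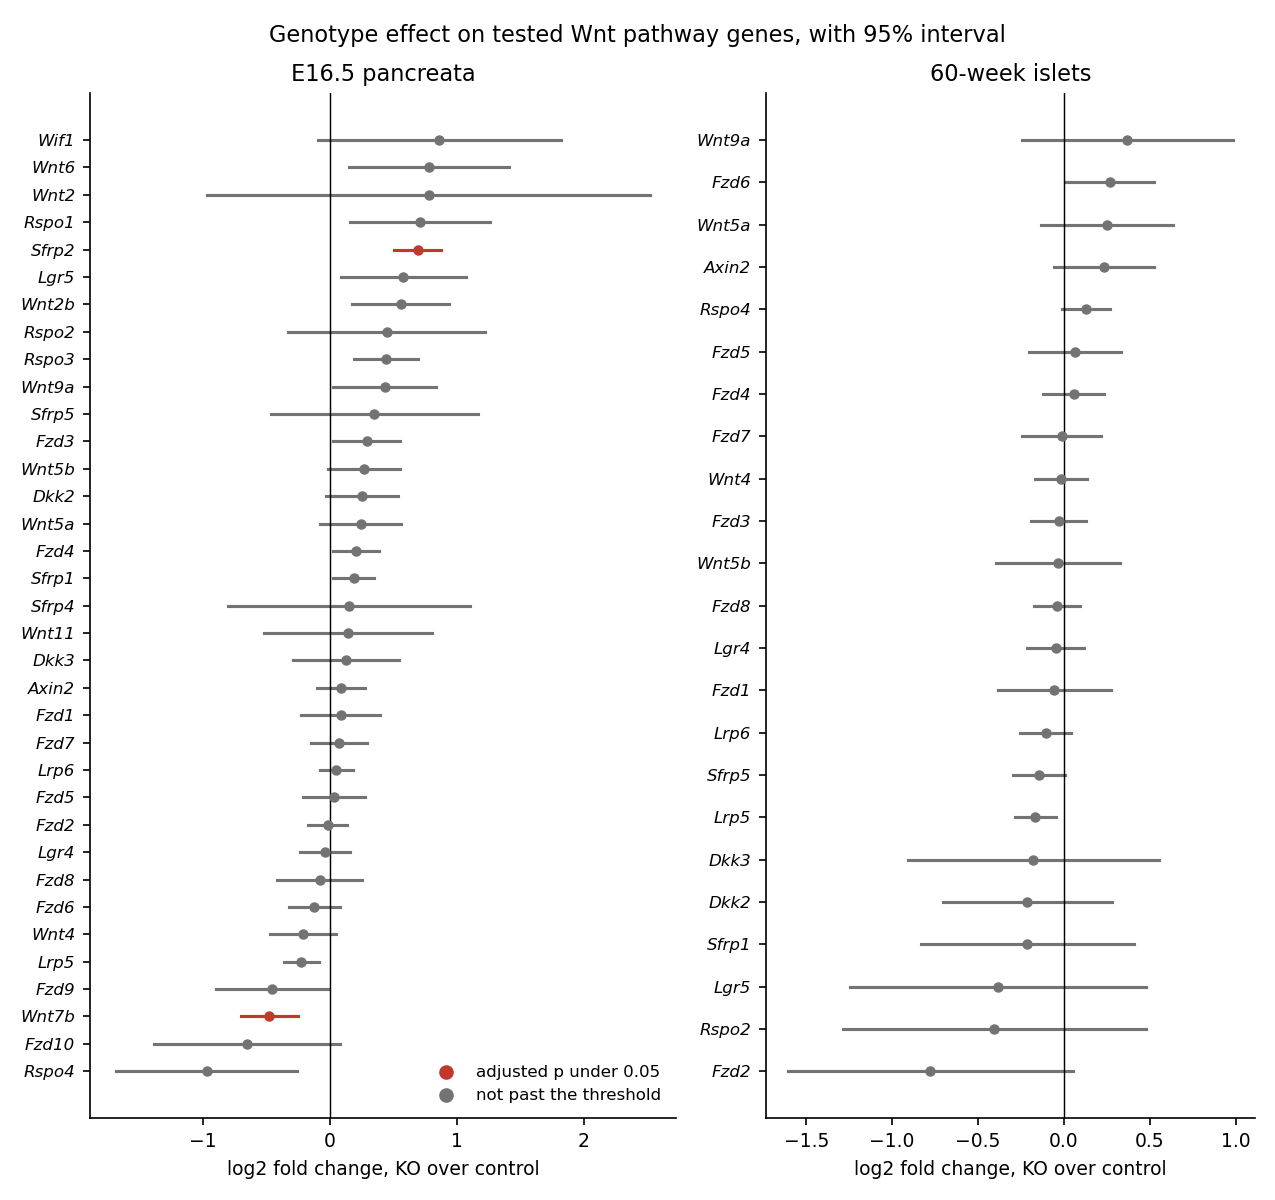
Log2 fold change, KO over control, with its 95% interval, for the 35 genes tested in E16.5 pancreata (left) and the 23 tested in 60-week islets (right), ordered by value and with red for an adjusted p under 0.05. Sfrp2 (0.69) and Wnt7b (-0.48) are the red points at E16.5, and no islet point is red.

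The 3 members highest in islets relative to E16.5 pancreata overlapped between genotypes. Wnt4, on chromosome 4 from 137277635 to 137299501 (plus strand), had 240, 271, 307, 284 and 272 CPM in KO islets, against 291, 276, 301, 243 and 280 CPM in control islets. The groups overlapped over nearly their whole range, and the log2 fold change was -0.02 (SE 0.069, 95% interval -0.17 to 0.13, adjusted p 0.990). It was 0.01 with library totals, 0.01 without control 829 and 0.03 without KO 055. Sfrp5, on chromosome 19 from 42197971 to 42202252 (minus strand), had 39.1, 35.8, 41.6, 38.7 and 45.5 CPM in KO islets, against 44.0, 41.6, 40.4, 47.7 and 48.1 CPM in control islets. The KO values of 122, 812 and 055 were below the lowest control, and the log2 fold change was -0.15 (SE 0.069, 95% interval -0.30 to 0.01, adjusted p 0.704). Rspo4, on chromosome 2 from 151842927 to 151874668 (plus strand), had 48.1, 44.6, 51.4, 52.4 and 47.1 CPM in KO islets, against 42.9, 38.8, 47.0, 45.7 and 48.6 CPM in control islets. Its log2 fold change was 0.13 (SE 0.065, 95% interval -0.01 to 0.27, adjusted p 0.723).

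**Figure D4:**
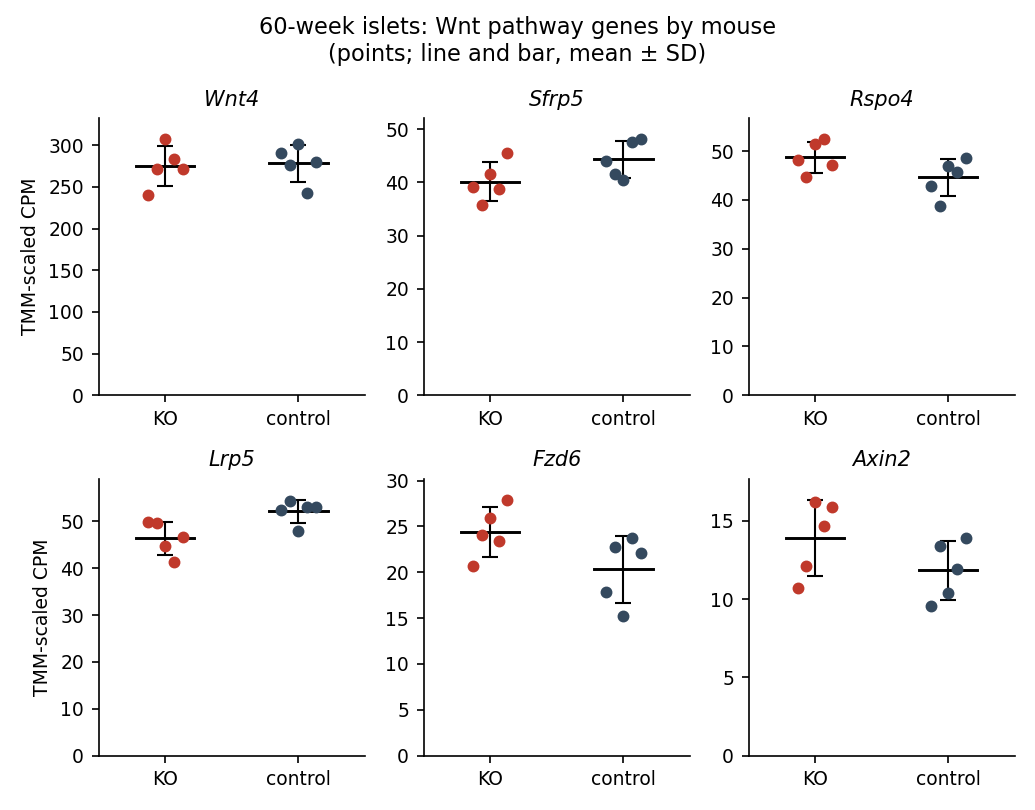
TMM-scaled CPM in each islet library for 6 genes, 5 KO mice left and 5 controls right, with line and bar the mean ± SD and each axis starting at 0. The groups overlap for all 6 genes, among them Wnt4 with KO islets between 240 and 307 CPM and control islets between 243 and 301 CPM.

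Lrp5 had 49.8, 49.6, 44.7, 41.4 and 46.6 CPM in KO islets, against 52.4, 54.3, 48.0, 53.1 and 53.0 CPM in control islets. Control 829 lay below the 2 highest KO values (log2 fold change -0.17, SE 0.055, adjusted p 0.488). Fzd6 had 20.7, 24.1, 25.9, 23.4 and 27.9 CPM in KO islets, against 17.8, 22.8, 15.2, 23.7 and 22.1 CPM in control islets (log2 fold change 0.27, SE 0.119, adjusted p 0.682). Lrp6 had 131, 130, 148, 150 and 152 CPM in KO islets, against 131, 163, 156, 161 and 155 CPM in control islets (log2 fold change -0.11, adjusted p 0.811). Fzd3, the most abundant Frizzled receptor of islets, had 118, 106, 102, 126 and 115 CPM in KO islets, against 102, 113, 133, 120 and 112 CPM in control islets. The log2 fold change of -0.03 (adjusted p 0.971) was 0.02 without control 829 and 0.01 without KO 803.

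Axin2 had 10.7, 12.1, 16.2, 14.7 and 15.9 CPM in KO islets, against 9.54, 13.4, 10.4, 11.9 and 13.9 CPM in control islets. The groups overlapped (log2 fold change 0.23, SE 0.134, 95% interval -0.06 to 0.52, adjusted p 0.772). Lgr5 was near the limit of detection in islets, at 0.462, 0.270, 0.239, 0.224 and 0.948 CPM in KO islets, against 0.355, 0.552, 0.456, 0.732 and 0.634 CPM in control islets, and differed by -0.39 on the log2 scale (SE 0.396, adjusted p 0.897).

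Several members were lowest in the same islet library. KO 812 held the lowest value of 9 of the 23 tested members, Dkk2, Dkk3, Fzd1, Fzd2, Lgr5, Lrp5, Rspo2, Sfrp1 and Wnt5a. The share of all genes tested that were lowest in KO 812 was not counted, so this is not read as particular to the members. The 12 mesenchyme and fibroblast markers summed to 226, 154, 323, 109 and 289 CPM in KO 055, 122, 803, 812 and 845, against 218, 206, 219, 244 and 254 CPM in controls 052, 826, 829, 857 and 858, so that KO 812 was lowest there too. Sfrp1 had 2.46 CPM in KO 812 and 10.3 CPM in KO 803, the KO libraries with the smallest and the largest marker sum. Marker sums of acinar (123 CPM), duct (185 CPM) and Schwann and glial cells (27.6 CPM) were also lowest in KO 812. Sums of the other marker lists, among them smooth muscle, endothelium and macrophages, were not lowest there. The part of any of these cell types in the member values was not tested. Dkk3, the most abundant Dkk gene of islets, had 7.01, 4.43, 6.70, 2.33 and 8.71 CPM in KO islets, against 5.99, 4.37, 4.27, 11.7 and 6.73 CPM in control islets, and its log2 fold change of -0.18 (adjusted p 0.962) was 0.02 without KO 812 and 0.14 without control 857. Fzd2 had 45 reads over the KO islets and 76 over the control islets, and differed by -0.78 on the log2 scale (SE 0.381, adjusted p 0.708), or -0.56 without KO 812.

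The difference between the genotype effects of the 2 tissues, islets minus E16.5 pancreata, was tested in 1 model over all 16 libraries. Of 36 members tested 2 passed, against 7.19% of all genes tested. Some of the 36 entered through the pancreata alone. Fzd10 and Wnt2 had no islet read, so no difference could be measured for them, and Fzd9 had 4 reads in each islet group. Rspo4 differed by 1.10 (SE 0.242, adjusted p 0.0138), the log2 fold changes being 0.13 in islets and -0.97 in pancreata. The call held in each of 20 alternatives, with adjusted p-values from 0.0015 to 0.0387. Pan-epithelial scaling was not among these 20. Within a tissue Rspo4 passed in neither (edgeR adjusted p 0.723 in islets and 0.0969 in pancreata). Its pancreatic side rests on 55 reads over the KO and 120 reads over the control embryos. The 10 endocrine markers had a median log2 fold change of -0.03 in islets, where none passed (2 had an unadjusted p under 0.05), and of -1.04 in pancreata, where 7 fell. Their part in the Rspo4 difference was not tested. Sfrp2 differed by -1.89 (SE 0.429, adjusted p 0.0154, up to 0.0382 over the alternatives). Its islet side rests on few reads, 5, 0, 7, 3 and 4 in KO islets, against 4, 6, 11, 9 and 15 in control islets, too few for the test within islets. Wnt7b had only 4 and 2 reads over KO and control islets (adjusted p 0.531). Axin2 differed by 0.16 (adjusted p 0.694), and the other members tested did not pass either.

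Further genes of the pathway were counted by their step. At E16.5, 3 of 23 beta-catenin transducers rose and none fell, against 3.75% and 2.68% of all genes tested. Of the 23, 12 lay above 0 on the log2 scale and 11 below, with a median of 0.04. The list holds co-repressors too, so a rise within it is not a measure of signalling. The 3 that rose were Tle4, Apc2 and Pygo1. Tle4, a co-repressor bound by TCF/LEF factors, had 30.2, 30.1 and 30.9 CPM in KO pancreata, against 20.3, 17.2 and 20.8 CPM in control pancreata (log2 fold change 0.65, SE 0.089, adjusted p 0.0176). Pygo1, a partner of beta-catenin through Bcl9, had 10.9, 9.96 and 11.9 CPM in KO pancreata, against 7.62, 7.45 and 8.05 CPM in control pancreata (0.50, adjusted p 0.0454). Apc2, a relative of Apc found mainly in neurons, had 34.5, 20.7 and 15.4 CPM in KO 01, 18 and 19, against 6.62, 5.38 and 5.06 CPM in controls (2.05, adjusted p 0.0186). The same order of KO embryos held for 10 sympathetic neuron markers, which summed to 896, 463 and 260 CPM in KO 01, 18 and 19, against 118, 106 and 118 CPM in controls (9 of 10 rose, none at 0), and their part in the Apc2 value was not tested. All 3 calls were lost without any one of the controls. Pygo1 was also lost without KO 01 or KO 19 and without a low-count filter.

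In the remaining lists at E16.5 no gene passed: 14 tested genes of Wnt secretion and surface modulation, 4 TCF/LEF factors, 10 target genes and 15 genes of non-canonical receptors and planar polarity, where 6.43% of all genes tested did. At an unadjusted p under 0.05 there were 3, 1, 1 and 2 of them, against 25.4% of all genes tested. Their median log2 fold changes were -0.05, -0.06, -0.06 and 0.03. In islets none of the 11, 23, 3, 9 and 15 genes tested in the lists of secretion, transducers, TCF/LEF factors, targets and non-canonical receptors passed with edgeR, and 0, 0, 0, 1 and 1 had an unadjusted p under 0.05, against 7.18% of all genes tested. Cd44, a surface glycoprotein listed as a target, had the lowest of these, with 143, 111, 114, 116 and 117 CPM in KO islets, against 100, 81.5, 110, 106 and 93.3 CPM in control islets. Every KO value was above every control value (log2 fold change 0.29, SE 0.087, adjusted p 0.395).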

How the data were processed

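Raw read counts per gene were deposited by the authors in 1 table per tissue, with totals that differ between libraries. The deposited tables also give each gene's length in kb and its coordinates, used as they stand. Trimmomatic, edgeR, HTSeq 0.11.1, STAR 2.6.0 and the build mm10 are listed, per the submitters' processing notes. Strand use in counting and the embryos' litters are not stated in the labels or tables.

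Counts were tested with edgeR 4.0.16 in R 4.3.3 (quasi-likelihood F test, TMM scaling, filterByExpr with default settings), within each tissue for genotype, over 8 control libraries for tissue and over all 16 libraries for the interaction. P-values were adjusted by Benjamini-Hochberg over all genes tested (14914 at E16.5, 14219 in islets, 15388 between tissues, 15823 for the interaction) with a threshold of 0.05. Standard errors and 95% intervals were derived from each fold change and F statistic. CPM were scaled within a tissue and RPKM over all 16 libraries, so depth limits genes of a few reads, and intervals cover these libraries alone. Within groups, no pair of libraries agreed within sampling noise (lowest chi-square per degree of freedom 5.09). No animal number is shared between groups, so the fits are unpaired.

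The members and lists were chosen with earlier results of these data known. Axin2, Lgr5, the called members (or the 4 with the lowest p), the most abundant member of each class and up to 4 called genes per pathway list were named by rule. Others were named after their values were seen, among them Rspo3 and Lrp5 at E16.5, and Cd44. Alternatives were library totals, RLE size factors, no low-count filter, DESeq2 1.42.0 and each library left out. Scaling to pan-epithelial markers was added for the E16.5 genotype comparison alone. The code was tested on simulated data.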

Additional observations from a re-analysis of the deposited data

Results flagged for a closer look

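Among 46 member groups of islet libraries examined for a library far from the rest, 3 stood out, and chance gives about 5% of groups. Fzd7 had 13.8 CPM in KO 055 and 18.2 to 18.7 CPM in the other 4 KO islets. Lgr4 had 35.2 CPM in KO 055 and 39.3 to 40.3 CPM in the other KO islets. Lrp6 had 131 CPM in control 052 and 155 to 163 CPM in the other control islets.

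For 2 members the genotype effect differed between the tissues by the interaction test. Rspo4 differed by 1.10 on the log2 scale, islets minus E16.5 pancreata, and Sfrp2 by -1.89. Endocrine markers had a median log2 fold change of -0.03 in islets (none of 10 passed) and -1.04 in pancreata (7 of 10 fell), and their part in the Rspo4 value was not tested. The Sfrp2 value rests on 19 reads over 5 KO islets and 45 reads over 5 control islets.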

How the results depend on the processing

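No paired analysis was possible because the groups share no animal numbers. At E16.5, where 560 genes rose and 399 fell, library totals gave 179 lower genes, DESeq2 gave 913 higher and 648 lower, and pan-epithelial scaling gave 9654 and 48. Members called higher (1) came to 2 with library totals, 4 with DESeq2 and 23 with pan-epithelial scaling, which left 0 lower. Leaving out a library gave 0 to 694 higher and 0 to 395 lower genes, with 0 to 3 members higher and 0 to 1 lower. In islets (16 higher, 6 lower) DESeq2 called 64 and 47 genes, and leaving out a library gave 3 to 16 and 2 to 10, with no member called in any. The interaction (623 higher, 514 lower) had 299 higher genes with library totals and, without single libraries, 261 to 666 higher and 254 to 625 lower genes; members lower came to 1 to 2, the second being Lgr5 (KO 845 left out). With library totals the control E16.5 levels of Sfrp1, Sfrp2, Fzd2, Lrp6 and Dkk2 were 41.0, 38.4, 17, 24.9 and 6.49 RPKM. The sign of the log2 fold change turned under at least 1 alternative for 13 of 35 members tested at E16.5, 8 of 23 in islets, 13 of 36 in the interaction and 2 of 33 between tissues, none of them called. At E16.5, 3 of the 13 (Fzd6, Lrp5 and Wnt4) turned with pan-epithelial scaling alone, which moves all genes by 0.39. Lrp5 was then at 0.17. Fzd2 was at 0.37 under that scaling, 0.06 with library totals and -0.065 to 0.027 on leaving out a library. Over all alternatives Lgr4 spanned -0.119 to 0.35, Dkk3 -0.06 to 0.522, Wnt2 -0.184 to 1.77, Wnt11 -0.227 to 0.54, Sfrp4 -0.459 to 0.531, Sfrp5 -0.02 to 0.737, and Fzd1, Fzd5 and Fzd8 turned too. In islets Wnt4 was at 0.007 with library totals and -0.063 to 0.027 on leaving out a library, Fzd3 at -0.073 to 0.024 and Dkk3 at -0.359 to 0.135. The others were Fzd1, Fzd7, Lgr4, Rspo2 and Wnt5b. The cause of these shifts was not tested. In islets, 24 members had too few reads for the test.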
